A study of Mus musculus with 9 samples.

Results

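The immediate early genes followed here, in the mediobasal hypothalamus (MBH) of weanling mice, were the transcription factor genes Egr1, Egr2, Egr3, Egr4 and Npas4, the synaptic gene Arc, and Btg2, Ier2 and Ier5. They were taken by symbol as genes of 1 class, with earlier results of these data known. Together they are 9 of 27665 genes with at least 1 count and hold 22 quantified transcripts, and 8 of them passed the filter on low counts that 15340 genes passed (CPM, counts scaled to library size, above 1 in at least 4 libraries). Egr2 did not pass. The study asked whether emulsifiers drunk by the mother alter the offspring's hypothalamus, and RNA was sequenced from the MBH of wild-type C57Bl/6 male pups at P21. The 4 CTRL libraries came from pups of dams given plain water, and the 5 Emul libraries from pups of dams given water with 1% carboxymethylcellulose (CMC) and 1% polysorbate 80 (P80) before pregnancy, through gestation and through lactation. Each library is described as a litter of its own, so p-values measure the spread between litters.

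Immediate early genes are transcribed within minutes of a stimulus, without the need for newly made protein, when calcium and kinase signals reach factors already bound at their promoters. In neurons they are read as a trace of recent activity. Their RNAs are short-lived, so their levels also carry how the animal was handled just before the tissue was taken. The 4 EGR proteins are zinc finger transcription factors that bind the same GC-rich DNA motif, NPAS4 is a neuronal transcription factor of the bHLH-PAS family induced by calcium entry, and ARC acts at synapses in the removal of AMPA receptors. BTG2 restrains proliferation and brings the CCR4-NOT deadenylase to mRNAs, and IER5 works with heat shock factor 1 and protein phosphatase 2A. IER2 is a nuclear protein whose role is less settled.

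Total estimated counts ran from 28.2 M in CTRL 3 to 46.1 M in Emul 4, and CTRL 3 was the only library with fewer than 37.2 M. Of the markers of the MBH, 9 of 10 passed the filter and Kiss1 did not, and the summed CPM of the cortical and hippocampal markers was between 8.48 and 10.6 in every library. The summed oligodendrocyte markers lay between 11470 and 14475 CPM in CTRL and between 8924 and 12143 in Emul (two-sided exact permutation p = 0.0635), the summed astrocyte markers between 1367 and 1503 against 1204 and 1344 (exact permutation p = 0.0159), and the summed neuronal markers between 2414 and 2590 against 2547 and 2742 (exact permutation p = 0.0397). The share of counts on mitochondrially encoded protein genes was 4.51% to 5.52% in CTRL and 5.71% to 6.75% in Emul (exact permutation p = 0.00794, the smallest that 4 against 5 libraries allow). Whether these differences in composition play a part in the levels given here was not tested. In bulk tissue, fewer cells that express a gene and less RNA per cell cannot be told apart.

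Egr1 was the most abundant of the 9 genes and Egr2 the least. On the TPM scale, which allows for transcript length, the means over the 9 libraries were 36.9 ± 10.7 (SD) for Egr1, 12.9 ± 3.22 for Btg2, 10.9 ± 2.21 for Arc, 7.12 ± 1.03 for Npas4, 6.55 ± 0.755 for Ier5, 5.50 ± 0.855 for Ier2, 3.13 ± 0.649 for Egr4, 2.86 ± 0.917 for Egr3 and 0.545 ± 0.247 for Egr2. Egr1 was above Btg2, Arc above Npas4, Ier2 above Egr4 and Egr3 above Egr2 in 9 of 9 libraries. Npas4 and Ier5 were in that order in only 6 of 9 libraries and Egr4 and Egr3 in 7 of 9, so these neighbours did not differ beyond their spread. Btg2 was above Arc and Ier5 above Ier2 in 8 of 9.

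None of the 8 tested genes passed the cutoff used here, an unadjusted p-value under 0.05 together with a fold change above 1.5 (limma-voom), against 0.469% of all genes tested (72 of 15340, 38 higher and 34 lower in Emul). That split moved with the settings. It was 29 higher and 39 lower with library size alone in place of TMM scaling, and 36 and 41 with protein-coding transcripts only. In edgeR's quasi-likelihood test it was 46 higher and 23 lower, and with DESeq2 35 and 22. At an unadjusted p under 0.05 without the fold criterion, 2 of 8, Egr1 and Btg2, were lower in Emul, beside 8.99% of all genes lower and 6.84% higher. None had an adjusted p under 0.05, as 0.117% of all genes did. The fold change was below 0 for 6 of 8 genes, against 49.2% of all genes. For none of the 8 were the CTRL and Emul libraries without overlap, against 6.6% of all genes.

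**Figure D1:**
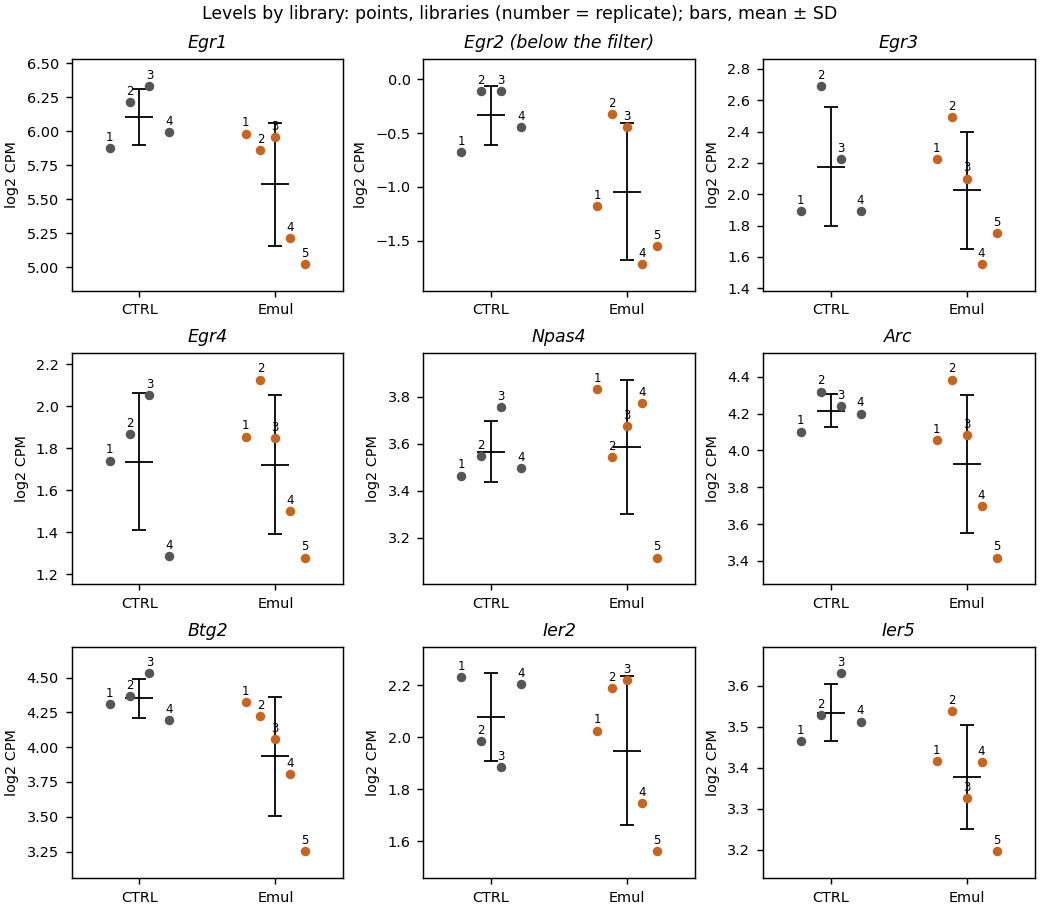
Level of each gene in log2 CPM (vertical axes, which differ in range and do not start at 0) in the 4 CTRL libraries (grey) and the 5 Emul libraries (orange). Points are libraries numbered by replicate and bars are the mean ± SD. Emul 5 is the lowest library for Egr1 (5.03), Arc (3.42), Btg2 (3.25), Npas4 (3.12), Ier5 (3.20), Ier2 (1.56) and, narrowly, Egr4 (1.279 against 1.284 in CTRL 4).

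Egr1 (ENSMUSG00000038418, chr18:34859823-34864984, plus strand), the EGR gene most used as an activity marker, had 2250, 3059, 2300 and 2754 estimated counts in CTRL 1 to 4 and 2499, 2410, 2347, 1684 and 1178 in Emul 1 to 5. On the log2 CPM scale these were 5.88, 6.22, 6.33 and 6.00 in CTRL and 5.98, 5.86, 5.96, 5.22 and 5.03 in Emul. Emul 1 to 3 lay within or just under the CTRL range and Emul 4 and 5 well under it. The log2 fold change (Emul minus CTRL) was -0.49 ± 0.18 (SE), with a 95% interval of -0.89 to -0.09, an unadjusted p of 0.0205 and an adjusted p of 0.231 by limma-voom. The two-sided exact permutation test of the same 9 values gave p = 0.103. Leaving out CTRL 2, CTRL 3 or Emul 4 moved the limma-voom p above the threshold, to 0.0538, 0.0543 and 0.0580 (adjusted p = 0.376, 0.399 and 0.303). Over all single omissions the fold change ran from -0.58 without Emul 1 to -0.35 without Emul 5, where the adjusted p by limma-voom was 0.350.

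Egr3 (ENSMUSG00000033730, chr14:70077203-70082614, plus strand), an EGR gene also needed for muscle spindles, had 140, 264, 132 and 158 counts in CTRL and 183, 231, 160, 131 and 120 in Emul. Its log2 CPM was 1.89, 2.69, 2.23 and 1.89 in CTRL and 2.23, 2.49, 2.10, 1.56 and 1.75 in Emul. CTRL 2 was the highest of the 9 libraries, and Emul 4 and 5 were the lowest. The log2 fold change was -0.15 ± 0.21 (SE, limma-voom adjusted p = 0.764), and it was 0.04 without CTRL 2 and -0.02 without Emul 4. Egr4 (ENSMUSG00000071341, chr6:85511121-85513589, minus strand), the remaining tested EGR gene, had log2 CPM of 1.74, 1.87, 2.05 and 1.28 in CTRL and 1.85, 2.13, 1.85, 1.5 and 1.28 in Emul, from 86 to 179 counts. Its groups covered the same range, and the log2 fold change was 0.02 ± 0.19 (SE, limma-voom adjusted p = 0.979). The 95% interval of that difference was -0.40 to 0.43.

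Egr2 (ENSMUSG00000037868, chr10:67535475-67542188, plus strand), best known for its part in myelination by Schwann cells and in hindbrain patterning, was near the limit of detection. It had 22, 36, 25 and 29.5 estimated counts in CTRL and 15.5, 31, 26, 11.5 and 10.5 in Emul, a CPM of 0.253 to 0.896. On the log2 CPM scale the CTRL libraries stood at -0.68, -0.11, -0.11 and -0.44 and the Emul libraries at -1.18, -0.33, -0.44, -1.71 and -1.55. Emul 1, 4 and 5 lay under every CTRL library and Emul 2 and 3 among them. A fit without the filter gave a log2 fold change of -0.76 ± 0.32 (SE; unadjusted p = 0.0336, adjusted p = 0.409, limma-voom), which is past the cutoff in that fit, as were 2.47% of 27665 genes (1.18% lower in Emul). The exact permutation test gave p = 0.111. In that unfiltered fit the unadjusted p rose above the threshold without CTRL 2, CTRL 3, Emul 1, Emul 4 or Emul 5, the highest being 0.102 without Emul 4. Egr2 was past the cutoff in 5 of 10 other settings of that fit and in 4 of 9 fits without 1 library. The unadjusted p was 0.0521 in edgeR's quasi-likelihood test, 0.0734 with DESeq2 and 0.0554 with limma-trend, and counts scaled by transcript length gave a smaller log2 fold change of -0.46 (unadjusted p = 0.192, limma-voom).

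Npas4 (ENSMUSG00000045903, chr19:4984355-4990316, minus strand), with all its transcripts summed, did not share the low level of Egr1 in Emul 4. It had 421, 479, 384 and 486 counts in CTRL and 561, 482, 481, 618 and 312 in Emul. Its log2 CPM was 3.47, 3.55, 3.76 and 3.50 in CTRL and 3.83, 3.55, 3.68, 3.77 and 3.12 in Emul, so that Emul 1 and 4 were the highest of all libraries and Emul 5 the lowest. The log2 fold change was 0.05 ± 0.13 (SE; 95% interval -0.23 to 0.32; adjusted p = 0.892, limma-voom). It was -0.14 with protein-coding transcripts only, -0.16 in the authors' table of log2 CPM, -0.01 without Emul 1 and -0.0019 without Emul 4, and 0.15 without Emul 5, so no direction is given for Npas4.

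Arc (ENSMUSG00000022602, chr15:74669083-74672570, minus strand) had 656, 820, 538 and 792 counts in CTRL and 656, 865, 638, 586 and 385 in Emul. Its log2 CPM was 4.10, 4.32, 4.24 and 4.20 in CTRL, a narrow range, and 4.06, 4.39, 4.08, 3.70 and 3.42 in Emul. Emul 2 was the highest of the 9 libraries and each of the other Emul libraries lay under every CTRL library. The log2 fold change was -0.28 ± 0.15 (SE; unadjusted p = 0.0790, adjusted p = 0.377, limma-voom; exact permutation p = 0.222). It was -0.17 without Emul 5 and -0.15 with the replicate number as a block, less than the value over all libraries by more than 1.5 times. Without Emul 2 it was -0.40 (unadjusted p = 0.00719, limma-voom adjusted p = 0.187), and in none of the other 8 fits that left out 1 library, nor in 13 other settings, was the p of Arc under 0.05.

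Btg2 (ENSMUSG00000020423, chr1:134075170-134079120, minus strand) had 757, 846, 658 and 789 counts in CTRL and 791, 772, 628, 631 and 343 in Emul. Its log2 CPM was 4.31, 4.36, 4.53 and 4.20 in CTRL and 4.33, 4.22, 4.06, 3.80 and 3.25 in Emul. Emul 1 and 2 lay within the CTRL range and Emul 5 lay furthest under it. The log2 fold change was -0.40 ± 0.17 (SE; 95% interval -0.76 to -0.04; unadjusted p = 0.0333, adjusted p = 0.269, limma-voom), and the exact permutation test gave p = 0.0873. The unadjusted p was 0.0515 without CTRL 1, 0.0651 without CTRL 2, 0.0745 without CTRL 3, 0.0756 without Emul 4 and 0.0829 with DESeq2. Without Emul 5 the log2 fold change was -0.24 (unadjusted p = 0.0441, limma-voom adjusted p = 0.348), which is less than the value over all libraries by more than 1.5 times.

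Ier5 (ENSMUSG00000056708, chr1:155096361-155099636, minus strand) varied least. Its log2 CPM was 3.47, 3.53, 3.63 and 3.51 in CTRL and 3.42, 3.54, 3.33, 3.41 and 3.20 in Emul, from 330 to 491 counts. Emul 2 lay among the CTRL libraries and the other 4 Emul libraries lay under all of them. The log2 fold change was -0.14 ± 0.07 (SE; unadjusted p = 0.0639, adjusted p = 0.348, limma-voom; exact permutation p = 0.0556), and without Emul 2 it was -0.19 (unadjusted p = 0.0203, limma-voom). With library size alone in place of TMM scaling the p of Ier5 was 0.0334. Ier2 (ENSMUSG00000053560, chr8:84661331-84662852, minus strand) had log2 CPM of 2.23, 1.99, 1.89 and 2.21 in CTRL and 2.03, 2.19, 2.22, 1.75 and 1.56 in Emul, from 104 to 197 counts. For Ier2, Emul 4 and 5 were the lowest libraries and the others overlapped. Its log2 fold change was -0.14 ± 0.14 (SE, limma-voom adjusted p = 0.663), and it was -0.08 without Emul 4 and -0.05 without Emul 5.

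For most of the genes the low values came largely from the same 2 litters, singled out here after their values were seen. Ier5 was an exception, with Emul 3 (-0.21 from the CTRL mean, log2 scale) lower than Emul 4 (-0.12). Emul 5 was the lowest of the 9 libraries for 7 of 8 tested genes, and of 17.0% of all genes tested. It lay under every CTRL library for 8 of 8, against 29.6% of all genes. Egr4 entered both counts only narrowly, at 1.279 log2 CPM in Emul 5 against 1.284 in CTRL 4. Emul 4 lay under every CTRL library for 6 of 8, against 21.4% of all genes. The exceptions were Egr4 and Npas4, the latter with all its transcripts summed. The median difference from the CTRL mean over the 8 genes was -0.49 in Emul 5 and -0.42 in Emul 4, on the log2 scale, but -0.04, 0.06 and -0.10 in Emul 1, 2 and 3. Of the marker sums, Emul 4 and 5 had the lowest Emul values for the thalamus, at 343 and 314 CPM against 386 to 489 in Emul 1 to 3 and 293 to 359 in CTRL (exact permutation p = 0.0952 between CTRL and Emul). They were also lowest of the Emul libraries in meningeal and fibroblast markers (53.1 and 40.2 CPM against 54.5 to 72.7) and highest in astrocyte markers (1344 and 1289 CPM against 1204 to 1241). They lay apart from each other in depth (46.1 M and 37.2 M estimated counts) and in oligodendrocyte markers, with the highest and the lowest of the Emul values (12143 and 8924 CPM). The summed MBH markers were 180 CPM in Emul 4, the lowest of all libraries, and 253 CPM in Emul 5, the highest. These sums were 192 to 211 CPM in Emul 1 to 3 and 194 to 226 CPM in CTRL. The mitochondrial share was 5.71% in Emul 4 and 6.09% in Emul 5. The part of these measures in the low values was not tested.

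**Figure D2:**
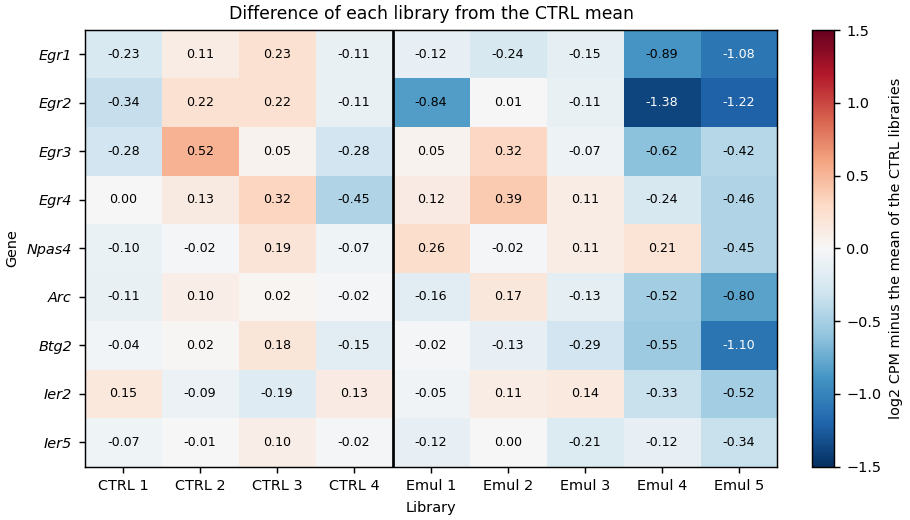
Difference of each library (columns) from the mean of the 4 CTRL libraries on the log2 CPM scale for each of the 9 genes (rows), with blue below and red above that mean; the vertical line parts CTRL from Emul. Emul 5 is below the mean for every gene, from -0.34 for Ier5 to -1.22 for Egr2, while Emul 4 runs from -1.38 for Egr2 and -0.89 for Egr1 to 0.21 for Npas4.

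Pooled over both groups, most of these genes varied between litters more than other genes of like level. The SD of log2 CPM within groups was 0.37 for Egr1, 0.34 for Btg2, 0.29 for Arc, 0.38 for Egr3, 0.33 for Egr4, 0.24 for Ier2, 0.23 for Npas4 and 0.11 for Ier5, and the median over all genes tested was 0.09. Among genes whose mean lay within 0.5 of the gene's own on the log2 scale, the SD of Egr1 stood at the 99.6th percentile, Btg2 at the 99.1st, Arc at the 98.5th, Egr3 at the 96.4th, Npas4 at the 95.3rd and Egr4 at the 91.0th. Ier2 was at the 82.3rd percentile and Ier5, at the 47.5th, was no more variable than its neighbours in level. Counting error alone would give an SD of 0.03 for Egr1, 0.06 for Btg2 and Arc, 0.07 for Npas4 and Ier5, 0.11 for Egr3, 0.12 for Ier2 and 0.13 for Egr4. For most of the genes the SD was larger in Emul, which holds the low libraries Emul 4 and 5, than in CTRL. It was 0.21 in CTRL and 0.45 in Emul for Egr1, 0.14 and 0.43 for Btg2, 0.09 and 0.38 for Arc, 0.13 and 0.29 for Npas4, 0.17 and 0.29 for Ier2 and 0.07 and 0.13 for Ier5. In CTRL alone, Arc and Ier2 were thus close to the median of genes of like level (0.09 and 0.17). That median is of SDs pooled over both groups, and one from CTRL alone was not worked out. Egr3 and Egr4 had an SD of 0.38 and 0.33 in CTRL and 0.37 and 0.33 in Emul. Over genes in general, most Emul libraries also differed more from each other than CTRL libraries did. The mean chi-square per gene between 2 libraries, which grows with depth, was 6.80 to 10.7 in CTRL and 7.20 to 19.1 in Emul. How many of all genes had a larger SD in Emul was not counted, so the larger SD is not shown to be particular to these genes.

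**Figure D3:**
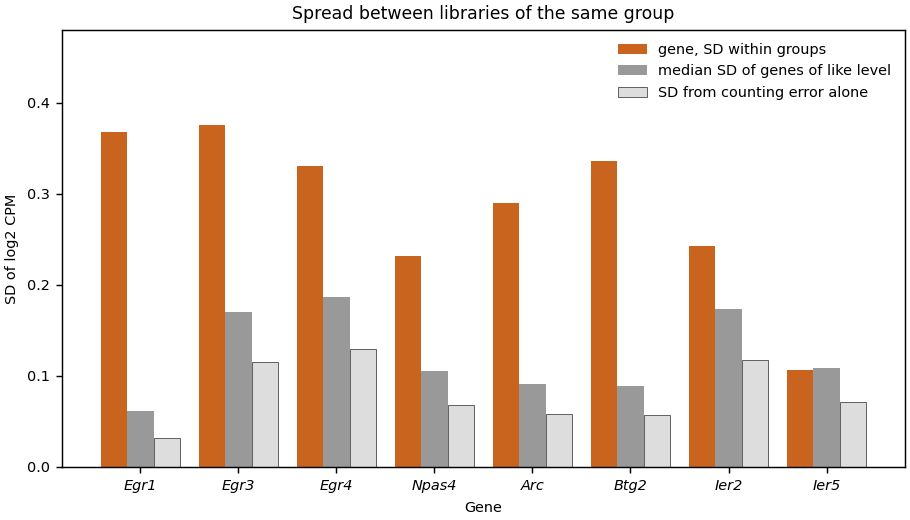
SD of log2 CPM between libraries of the same group (orange) for the 8 tested genes, beside the median SD of genes of like mean level (dark grey) and the SD that counting error alone would give (light grey). Egr1 stands at 0.37 against a median of 0.06, whereas Ier5 stands at 0.11 against a median of 0.11.

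Across litters the genes varied together, to an extent that rested on Emul 5. With each group's mean subtracted, the correlation of log2 CPM over the 9 libraries was above 0 in 28 of 28 pairs of tested genes, with a median Pearson r of 0.70 (0.20 for Egr3 with Npas4 to 0.90 for Egr1 with Btg2). Without Emul 5 the median was 0.45 and 4 pairs lay below 0: Npas4 with Ier2 (-0.74), Arc with Npas4 (-0.39), Ier2 with Ier5 (-0.31) and Egr3 with Npas4 (-0.12). Without any one of the other libraries the median was between 0.67 and 0.77 and 0 pairs lay below 0. By rank over all 9 libraries (Spearman rho, group means subtracted) the lowest pairs were Npas4 with Ier2 (-0.05) and Ier2 with Ier5 (0.07). These values are a description over 9 points that share the same libraries, depth and tissue composition. The share of positive pairs among other genes was not worked out. Among all genes tested, those most like Egr1 by this measure were Nr4a1 (r = 0.97), an orphan nuclear receptor gene of the immediate early class, Zfp36l1 (0.97), whose protein promotes decay of AU-rich mRNAs, the lysophosphatidic acid receptor gene Lpar2 (0.96), Spty2d1 (0.95) and Fos (0.95). In that order Btg2 ranked 34th, Arc 73rd, Egr4 268th, Egr3 432nd, Npas4 951st, Ier2 1105th and Ier5 1114th.

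Ratios within a library, of levels summed over transcripts, gave the same contrast between genes. The log2 ratio of Egr1 to Npas4 was 2.54 ± 0.11 (SD) in CTRL and 2.02 ± 0.36 in Emul, a difference of -0.52 (exact permutation p = 0.0238). Npas4 relative to Btg2 differed by 0.44 in the other direction (exact permutation p = 0.0159), and Egr4 relative to Btg2 by 0.40 (exact permutation p = 0.0159). Egr1 to Egr4 (-0.48, exact permutation p = 0.0238) and Egr4 to Arc (0.27, exact permutation p = 0.0397) were the remaining pairs with a p under 0.05, and over the 28 pairs the smallest Benjamini-Hochberg adjusted p was 0.167. A ratio shows unequal change, not which gene moved.

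The upstream sequence is shown for the Btg2, Egr2 and Egr4 genes because they hold the letters of elements through which calcium and serum signals are known to act on genes of this class, and because Btg2 was 1 of the 2 genes with an unadjusted p under 0.05. RefSeq promoter windows (build GRCm38.p6, 250 bases before to 50 after the start site) were matched for Egr2, Egr4, Npas4, Btg2 and Ier5. Windows for Egr1, Egr3, Arc and Ier2 were not used here. The 250 bases before the start site are printed in the direction of transcription, with matches to the searched motifs in capitals. The Btg2 bases are chr1:134079156-134079405 (minus strand), the Egr2 bases chr10:67537619-67537868 (plus strand), just before the main Egr2 transcript, and the Egr4 bases chr6:85513590-85513839 (minus strand). None of the 3 overlaps an annotated exon.
Btg2: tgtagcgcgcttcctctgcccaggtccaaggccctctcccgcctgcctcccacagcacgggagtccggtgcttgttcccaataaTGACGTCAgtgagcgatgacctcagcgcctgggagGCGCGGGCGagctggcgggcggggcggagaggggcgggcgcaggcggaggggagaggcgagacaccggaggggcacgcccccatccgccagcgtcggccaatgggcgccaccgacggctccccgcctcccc
Egr2: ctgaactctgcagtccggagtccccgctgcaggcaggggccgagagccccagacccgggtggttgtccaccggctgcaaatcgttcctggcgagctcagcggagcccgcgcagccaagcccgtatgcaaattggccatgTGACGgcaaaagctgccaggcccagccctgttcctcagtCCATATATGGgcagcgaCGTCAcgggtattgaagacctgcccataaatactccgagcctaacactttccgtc
Egr4: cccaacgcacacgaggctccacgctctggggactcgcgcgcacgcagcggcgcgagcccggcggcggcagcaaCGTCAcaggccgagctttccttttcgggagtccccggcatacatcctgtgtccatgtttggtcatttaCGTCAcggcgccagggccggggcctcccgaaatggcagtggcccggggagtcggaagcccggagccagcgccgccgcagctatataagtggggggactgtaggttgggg

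The motifs searched on both strands were the cyclic AMP response element (CRE, TGACGTCA), its shorter core TGACG, which every CRE contains, the CArG box bound by serum response factor, the EGR site GCGNGGGCG and the TATA box TATAAA. Btg2 held a full CRE at -166 to -159 from the start site and an EGR site at -131 to -123, and was the only one of the 5 genes with either, where 2.03% and 6.27% of 27025 genes in the table have one. Egr2 held a CArG box at -72 to -63 (1.81% of genes) between CRE cores at -111 to -107 and -55 to -51. Egr4 held CRE cores at -177 to -173 and -109 to -105. A CRE core was present in 4 of 5 genes, Npas4 included, against 23.0% of all genes, and Ier5 held none of the motifs searched. The exact letters TATAAA were found in 0 of 5 and in 15.7% of all genes. Other forms of a TATA box were not searched, and the printed Egr4 bases hold tatataag, so the count does not show that a TATA box is absent. A match of letters does not show binding, and these windows carry no measurement from these samples.

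At the level of transcripts, Egr4, Ier2, Ier5 and Btg2 were quantified as 1 transcript each. Egr1 was split into ENSMUST00000165033.1, with 87.6% of its counts, and the longer ENSMUST00000064795.5, with 12.4%. The longer one had 314, 353, 252 and 416 counts in CTRL and 277, 289, 268, 215 and 149 in Emul. After scaling to depth its groups did not overlap, and its log2 fold change was -0.58 ± 0.17 (SE; unadjusted p = 0.00637, adjusted p = 0.330, limma-voom), just short of the fold criterion. The share of all transcripts tested whose groups did not overlap was not worked out. The main transcript stood at -0.46 ± 0.21 (unadjusted p = 0.0551, limma-voom). Of 39840 transcripts tested, 10.8% had an unadjusted p under 0.05 and 2.61% also passed the fold criterion, as 0 transcripts of the 9 genes did. The share of the longer transcript did not separate the groups, at 12.9% ± 1.96 (SD, n = 4) in CTRL and 12% ± 0.749 (n = 5) in Emul (exact permutation p = 0.389). Of all 31-base stretches of the main transcript 99.1% also lie in the longer one, so the split between them is an estimate.

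Npas4 was split into a protein-coding transcript, ENSMUST00000056129.8, with 71.7% of its counts, a transcript marked for nonsense-mediated decay, ENSMUST00000237881.1, with 19.9%, and one with a retained intron, ENSMUST00000237172.1, with 8.34%. The retained-intron share was 7.53%, 4.52%, 2.94% and 6.31% in CTRL and 9.62%, 10.6%, 4.65%, 16.7% and 8.43% in Emul. It was highest in Emul 4, the library in which summed Npas4 stood apart from Egr1, and lowest in CTRL 3. The protein-coding share was 59.4% in Emul 4, against 73.0% to 83.2% in CTRL. The protein-coding transcript had 328, 359, 319 and 355 estimated counts in CTRL and 392, 313, 384, 367 and 213 in Emul. The high Npas4 level in Emul 4 thus holds for all transcripts together and is not shown for the protein-coding one. The means were 5.33% ± 2.01 (SD, n = 4) and 10.0% ± 4.36 (SD, n = 5), and the exact permutation test gave p = 0.0714. The protein-coding share was 77.3% ± 4.43 in CTRL and 68.4% ± 7.49 in Emul (exact permutation p = 0.0794), and the protein-coding transcript alone had a log2 fold change of -0.13 ± 0.16 (SE, limma-voom adjusted p = 0.804). Between 84.8% and 98.9% of the 31-base stretches of these transcripts are shared, so the shares rest on few reads of their own.

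**Figure D4:**
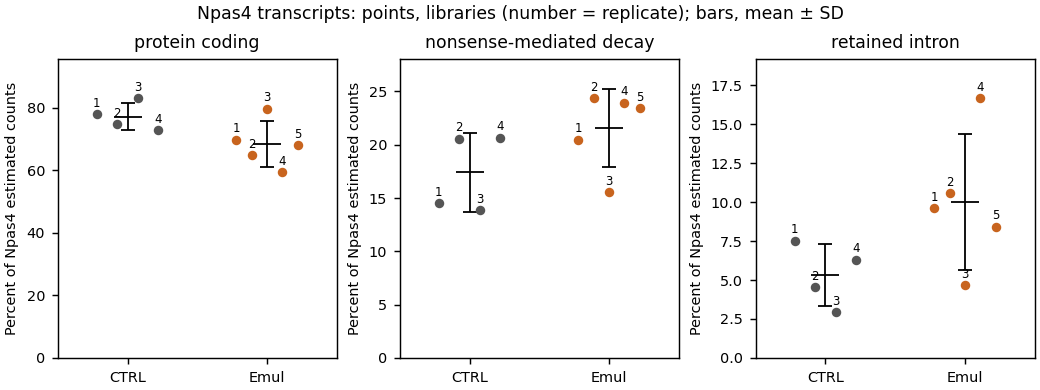
Share of the estimated counts of Npas4 (percent, vertical axes from 0) on its 3 transcripts in each CTRL (grey) and Emul (orange) library; points are numbered by replicate and bars are the mean ± SD. The retained-intron share runs from 2.94% to 7.53% in CTRL and from 4.65% to 16.7% in Emul, with Emul 4 highest.

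Egr3 and Arc were split unevenly between libraries. Egr3 counts lay mostly on ENSMUST00000225200.1 (67.9%), and a retained-intron transcript took between 0% and 45.4% in Emul and between 6.91% and 39.7% in CTRL. The 2 Arc transcripts share 99.0% of their 31-base stretches and held 69% and 31% of its counts. These splits were not read further. Egr2 counts lay for 88.3% on ENSMUST00000048289.13.

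Other immediate early genes, given as the setting of these values, contained larger differences than the 8 genes did. Of 32 tested, 8 were lower in Emul at an unadjusted p under 0.05 (8.99% of all genes tested) and 1 was higher (6.84%). The cutoff was passed by 4, each lower in Emul (0.222% of all genes tested). The median log2 fold change was -0.12, against 0.0015 over all genes. Nr4a3, an orphan nuclear receptor gene, fell by 1.03 ± 0.21 (SE) on the log2 scale (adjusted p = 0.0916, limma-voom). Its log2 CPM was between 3.49 and 4.54 in CTRL and between 2.70 and 3.15 in Emul, without a step at Emul 4 and 5. Its groups did not overlap, where 3.8% of all genes tested were lower in Emul without overlap. Jun, a subunit of AP-1, differed by -0.30 ± 0.04 (adjusted p = 0.0246), Sik1, a kinase that restrains CREB coactivators, by -0.48 ± 0.09 (adjusted p = 0.0813), and Fosl2, also of AP-1, by -0.60 ± 0.13 (adjusted p = 0.102), all by limma-voom. Fos, Nr4a1, Nr4a3 and Fosl2 were past the cutoff, and the summed CPM of the list was 788 to 867 in CTRL and 658 to 747 in Emul (exact permutation p = 0.00794), lowest in Emul 4 and 5. This list was drawn up with results for some of its genes known, and its counts are no independent evidence of a direction.

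**Figure D5:**
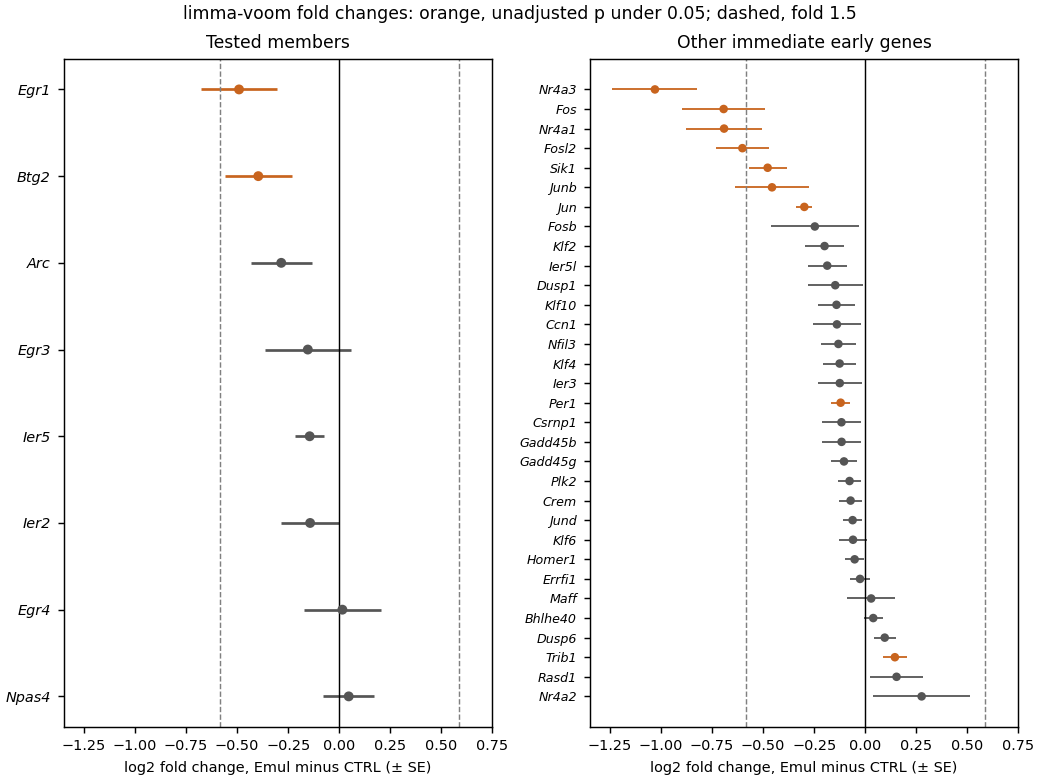
Log2 fold change of Emul minus CTRL ± SE by limma-voom (horizontal axes) for the 8 tested genes (left) and for 32 other immediate early genes (right), orange where the unadjusted p is under 0.05; dashed lines mark a fold change of 1.5. Egr1 (-0.49) and Btg2 (-0.40) are the orange points on the left, and Nr4a3 (-1.03) lies furthest from 0 on the right.

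Among genes whose products act with, on or downstream of the 9 genes, none passed the cutoff or had an adjusted p under 0.05 by limma-voom. The counts that follow are at an unadjusted p under 0.05, which 8.99% of all genes tested passed lower in Emul and 6.84% higher. Of 27 upstream factors, which include serum response factor, CREB and their kinases, 0 were lower and 4 were higher: Ppp3cb (0.13 ± 0.04 SE, log2 scale) and Ppp3ca (0.08 ± 0.03), the catalytic subunits of calcineurin, Mef2a (0.25 ± 0.09) and Mrtfa (0.11 ± 0.05). Among 9 EGR partners and corepressors, 3 were lower, Chd4 (-0.12 ± 0.03), Ep300 (-0.09 ± 0.03) and the EGR corepressor gene Nab1 (-0.16 ± 0.06), and none was higher. Of 12 NPAS4 partners and relatives, Sim2 was lower (-0.52 ± 0.16) and Npas3 higher (0.18 ± 0.06).

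Of 22 genes described as NPAS4 or EGR targets in neurons, 3 were lower and 2 higher at an unadjusted p under 0.05, and 0 passed the cutoff. On the log2 scale Bdnf, the neurotrophin gene, stood at 4.71, 4.81, 4.41 and 4.90 CPM in CTRL libraries and at 4.84, 5.10, 5.11, 4.84 and 5.30 CPM in Emul libraries, a difference of 0.31 ± 0.11 (SE, limma-voom adjusted p = 0.212). It was thus highest in Emul 5, where Egr1 and Npas4 were lowest. The histone demethylase gene Kdm6b differed by -0.15 ± 0.04, the p53 ligase gene Mdm2 by -0.15 ± 0.04 and the phosphatase gene Dusp4 by -0.43 ± 0.15. Of 22 ARC partners and genes of AMPA receptor trafficking, 1 was lower (Dnm2, -0.11 ± 0.04) and 1 higher (Sh3gl2, 0.12 ± 0.05), both acting in endocytosis.

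In the family and complex of Btg2, 4 of 16 tested genes had an unadjusted p under 0.05 and all 4 were lower in Emul, beside 8.99% of all genes: Btg1 (-0.21 ± 0.04 SE), Tob2 (-0.27 ± 0.06), which is of the same antiproliferative family, and the CCR4-NOT subunit genes Cnot9 (-0.13 ± 0.04) and Cnot3 (-0.10 ± 0.04). The groups did not overlap for any of these 4, where 3.8% of all genes were lower in Emul without overlap, and none reached an adjusted p under 0.05 (Btg1, adjusted p = 0.101, limma-voom). Of 14 IER5 partners, 3 were lower and 3 higher: the phosphatase subunit genes Ppp2cb (0.14 ± 0.03) and Ppp2ca (0.06 ± 0.02) stood higher and the chaperone genes Dnajb1 (-0.23 ± 0.06) and Bag3 (-0.29 ± 0.10) lower.

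Genes that follow time of day and stress hormone were read beside the 9 genes because immediate early genes respond to handling and light. Of 14 clock genes, Per1, itself an immediate early gene, differed by -0.12 ± 0.05 (SE, limma-voom adjusted p = 0.229) and Ciart by 0.25 ± 0.06 (adjusted p = 0.114), and the other 12 did not pass an unadjusted p of 0.05. Over all genes tested, 15.8% passed that p in either direction, 0.469% passed the cutoff and 6.6% were without overlap. Of 12 genes of the glucocorticoid response, Zbtb16 rose by 0.71 ± 0.19 on the log2 scale, past the cutoff and without overlap (adjusted p = 0.141), Hif3a was higher (0.44 ± 0.12) and Pdk4 was lower (-0.26 ± 0.08), while Fkbp5, Sgk1 and Tsc22d3 were not past 0.05. Among markers of the suprachiasmatic nucleus, which borders the MBH, Vip was past the cutoff (-1.5 ± 0.57; adjusted p = 0.237), standing at 0.42, 0.17 and -0.17 (log2 CPM) in Emul 2, Emul 3 and Emul 5 but at 2.42 or more in every other library. Emul 5 was low in both Vip and Egr1, and Emul 4 was low in Egr1 but not in Vip. Emul 2 and Emul 3, low in Vip, lay within or just under the CTRL range of Egr1. The part of time of day, handling or dissection in the levels of the 9 genes was not tested.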

How the data were processed

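RNA from the MBH of 4 CTRL and 5 Emul litters was sequenced as strand-specific mRNA libraries in paired-end mode. The authors checked reads with FastQC 0.11.9 and quantified transcripts of mm10 with kallisto 0.46.1 (versions per the submitters' processing notes, which also name edgeR 3.40.1), and deposited estimated counts and TPM values for 119414 transcripts per library. The authors also deposited a log2 CPM table of 14593 rows, of which 1 has no gene name. How transcripts were joined to genes in it, and the annotation release, are not given in the sources used here. It holds 7 of the 9 genes, not Egr2 or Egr3, and served as an alternative only.

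Estimated counts were summed per gene with GENCODE M21 (97.8% of transcripts matched, and 1.20% to 1.27% of counts were on unmatched ones, which were left out). The filter (CPM above 1 in at least 4 libraries), limma, and the cutoff of a p under 0.05 with a fold change above 1.5 follow the methods of the study. These do not say whether p is adjusted, and the legend of its volcano plot names an FDR. The unadjusted p was used for the cutoff here. TMM scaling, voom without covariates (limma 3.58.1, edgeR 4.0.16, R 4.3.3) and Benjamini-Hochberg adjustment over all 15340 genes were chosen here. Log2 CPM used a prior count of 2. Coordinates are of mm10. For values given once per library the exact permutation test (two-sided) went through every way of dividing the libraries into 4 and 5, and summed CPM was tested after adding 0.1 and taking the log. edgeR's quasi-likelihood test and DESeq2 1.42.0 used counts rounded to whole numbers. The tests were checked on simulated data. Libraries held 28.2 M to 46.1 M counts, and the SD that counting error alone would give is set beside the spread of each gene.

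The members and the gene lists were chosen with earlier results of these data known. The genes named are the 9 genes, up to 4 genes of each list by smallest p among those with an unadjusted p under 0.05, and the 5 genes most like Egr1, which has both the most counts and the smallest p. Fos and Nr4a1 were also named as past the cutoff. Fkbp5, Sgk1 and Tsc22d3 were named after their values were seen. Replicate numbers do not pair the litters: the correlation of deviations from the group means was -0.16, -0.01, 0.02 and -0.06 for numbers 1 to 4. A planned description of protein sequences was not run. Promoter windows are from RefSeq, GRCm38.p6. No 2 libraries of the same group agreed within sampling noise, and CTRL libraries were not compared with Emul libraries in this way.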

Additional observations from a re-analysis of the deposited data

Results flagged for a closer look

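Of 86 sets of 4 or 5 values examined, 6 held a library whose gap to the nearest other library was a larger part of the range than the usual 95% limit for that number of samples, and chance gives about 1 in 20, or 4.3. Of the 9 genes, 0 were marked by their level. In Arc, CTRL 1 stood apart in how kallisto split the counts: its share of ENSMUST00000023268.13 was 61.1% against 72.4% to 74.6% in the other CTRL libraries (gap 0.838 of the range), and the share of the other transcript, ENSMUST00000110009.3, mirrors it (gap 0.838). In Egr2, the share of ENSMUST00000048289.13 was 75.5% in CTRL 3 against 97.0% to 100% in the others (gap 0.879), on 25.0 counts. The summed MBH markers were 226 CPM in CTRL 4 against 194 to 199 (gap 0.842), the summed endothelial markers 147 CPM in Emul 3 against 127 to 132 (gap 0.731), and the summed NPAS4 or EGR target genes 3577 CPM in Emul 5 against 3366 to 3424 (gap 0.727).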

How the results depend on the processing

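The number of genes past the cutoff, 72, was 343 at a lower fold criterion, 21 at a fold above 2, 1 at an adjusted p under 0.05, 683 with no filter and 26 at a CPM above 5, was within 1.5 times of 72 in the other 11 settings, and was 48 to 95 with 1 library left out. Of the 8 tested genes, 2 passed at that lower fold criterion (Egr1 and Btg2) and 0 in the other settings and 9 fits without 1 library. With no filter 1 gene passed, Egr2, which the other counts leave out. The number with an unadjusted p under 0.05 was 1 with DESeq2, and between 0 (without CTRL 2, CTRL 3 or Emul 4) and 4 (without Emul 2) with 1 library left out. The number without overlap ran from 0 to 2, at 2 (Arc and Ier5) without Emul 2 and 1 (Egr1) without CTRL 1. In each case the library left out was the one that made the groups overlap. The share of all genes without overlap in these fits was not worked out. Egr1 kept an unadjusted p under 0.05 in 13 of 13 settings and 6 of 9 fits without 1 library, and Btg2 in 12 of 13 and 5 of 9. With a replicate block, in which Emul 5 stands alone and adds nothing, 73 genes passed the cutoff, the log2 fold change was -0.35 for Egr1, -0.24 for Btg2 and -0.15 for Arc, and no call on a tested gene changed. Egr2, without the filter, stood at -0.57 with the block (unadjusted p = 0.0659, limma-voom). The sign of Egr4 turned in edgeR (-0.00023), DESeq2 (-0.0015), limma-trend (-0.0146), library size alone (-0.0135), the authors' table (-0.0165) and without 1 library (-0.15 to 0.12). That of Npas4 turned with protein-coding transcripts only (-0.14), in the authors' table (-0.16) and without 1 library (-0.0112 to 0.155), and that of Egr3 without CTRL 2 (0.0382, and -0.28 to 0.04 over single omissions). The cause of these turns was not tested. Depth limits Egr2 (10.5 to 36.0 counts).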
